A study of Mus musculus with 203 samples.

Results

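The neuropeptide Y receptors described here are Npy2r, Npy1r and Npy5r, 3 of the 24029 genes in the count table. They were taken by name, by a rule that uses no measured value, but with earlier results of these data known. The study had already named Npy2r, from these data, among genes selectively expressed in heart-innervating neurons. The 3 genes were followed across the 3 types of nucleus ambiguus (Amb) neuron in the annotation that was deposited with the counts. The neurons came from wild type mice with no transgene, of the strain C57BL/6 by the labels and C57BL/6NCrl by the study's methods. A fluorescent cholera toxin B tracer was injected at postnatal day 1, into the pericardial space for AmbCardiac neurons (Heart in the plots) or, in other mice, into the cricothyroid muscle for AmbLaryngeal neurons (Larynx), and single neurons were aspirated from brainstem slices at postnatal days 2 to 4. The annotation holds 53 ACP and 98 ACV neurons, which together are the AmbCardiac neurons, and 52 AmbLaryngeal neurons. Each neuron is a separate sample, and the labels tie no neuron to a mouse. Each type was therefore treated as 1 sample, no test was made between types, and a standard deviation (SD) is the spread among neurons, which are not replicates.

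Neuropeptide Y, peptide YY and pancreatic polypeptide are related peptides that act on a family of receptors coupled to inhibitory G proteins. Npy2r encodes the Y2 receptor, best known as a presynaptic receptor that restrains transmitter release, while Npy1r encodes the Y1 receptor, often postsynaptic, and Npy5r encodes the Y5 receptor. Neuropeptide Y is a cotransmitter of sympathetic neurons, and Y2 receptors on cardiac vagal endings are known for inhibiting acetylcholine release there. The AmbCardiac neurons are preganglionic parasympathetic neurons, which by the study end on ganglion neurons of the heart, and those ganglion neurons in turn innervate heart tissue. Whether Npy2r RNA in AmbCardiac neurons yields receptors on any ending was not tested. The AmbLaryngeal neurons are motor neurons of a laryngeal muscle.

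In the GENCODE vM21 annotation of GRCm38, the genome build of the deposited counts, Npy2r lies on the minus strand at chr3:82538383-82548084, with 3383 bases in 2 exons. Npy1r, on the plus strand at chr8:66697192-66706792, and Npy5r, on the minus strand at chr8:66679965-66688128, are divergent neighbors separated by 9063 bases. No other annotated gene overlaps any of the 3. The sequence before the start of Npy2r, the member whose detection differed most between the types, is shown with its CG pairs in capitals. It is the 250 bases before the RefSeq start on GRCm38.p6, minus strand, chr3:82548086-82548335.
Npy2r: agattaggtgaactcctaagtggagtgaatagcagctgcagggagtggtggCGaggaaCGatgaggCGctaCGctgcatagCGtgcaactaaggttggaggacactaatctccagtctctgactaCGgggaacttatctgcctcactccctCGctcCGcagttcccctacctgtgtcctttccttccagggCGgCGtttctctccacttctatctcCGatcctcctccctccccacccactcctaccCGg
This window holds 12 CG pairs and is 56.8% G or C. The windows before the RefSeq starts of Npy1r and Npy5r, of which 230 and 34 bases lie inside the longer GENCODE gene models given above, hold 10 and 12 CG pairs, against a median of 6 over the 32851 promoter windows of that length in the table. The letters GGTGTG, the core of the site bound by T-box factors, or their complement CACACC, are in none of the 3 windows and in 16.3% of all windows.

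The neurons had 542162 to 3292763 reads each. The ribosomal RNA gene Rn45s took a median of 35.6% of the reads of AmbCardiac neurons and 58.6% of those of AmbLaryngeal neurons, so levels are given as counts per 1000000 reads outside Rn45s (CPM). Reads outside Rn45s ran from 313668 to 2396541 in AmbCardiac neurons and from 118492 to 1821510 in AmbLaryngeal neurons, with medians of 1115375 and 560892. The medians of ACP and ACV neurons were 1115375 and 1120512. Most markers went with the labels of the types. The vesicular acetylcholine transporter gene Slc18a3 was detected in every neuron. All 5 ACP markers were past 2-fold higher in ACP than in ACV neurons. All 4 ACV markers were past 2-fold higher in ACV than in ACP neurons, with Ghsr and Htr3b at 0 reads in ACP neurons. All 3 cardiac markers were past 2-fold higher in AmbCardiac neurons and all 5 laryngeal markers in AmbLaryngeal neurons. Against AmbLaryngeal neurons, however, the ACP markers Tacr3 (log2 ratio 0.45) and Brinp3 (0.87) were within 2-fold in ACP neurons. Over all AmbCardiac neurons Tacr3 was past 2-fold lower than in AmbLaryngeal neurons (-1.01). Markers of excitatory or inhibitory neurons were detected as well and moved with the target. Of 5 such genes, Slc17a6 (log2 ratio -1.29), Gad1 (-1.70) and Gad2 (-1.48) were past 2-fold higher in AmbLaryngeal neurons, and the sum of the list had medians of 48.7 CPM in AmbCardiac and 241 CPM in AmbLaryngeal neurons. The endothelial list had a median sum of 0 in each type. These types were found by clustering the same counts, so differences between ACP and ACV neurons are descriptions. The cardiac and laryngeal markers are among genes that the study listed from these same counts. Their direction between the targets was thus known in advance and is no independent check of the labels.

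Npy2r was detected, with at least 1 read, in most AmbCardiac neurons and in few AmbLaryngeal neurons. In ACP neurons its level ran from 0 to 443 CPM with a median of 29.9 CPM, in ACV neurons from 0 to 687 CPM with a median of 4.01 CPM, and in AmbLaryngeal neurons from 0 to 21.4 CPM with a median of 0. The ranges overlapped, also among neurons with a read, and 48 of the 52 AmbLaryngeal neurons had none. Detection was 40 of 53 ACP neurons (75.5%, 95% interval 61.7 to 86.2), 52 of 98 ACV neurons (53.1%, 42.7 to 63.2) and 4 of 52 AmbLaryngeal neurons (7.69%, 2.14 to 18.5). These are exact Clopper-Pearson intervals, and since reads were amplified by PCR and carry no molecular identifiers, intervals here cover counting error only.

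**Figure D1:**
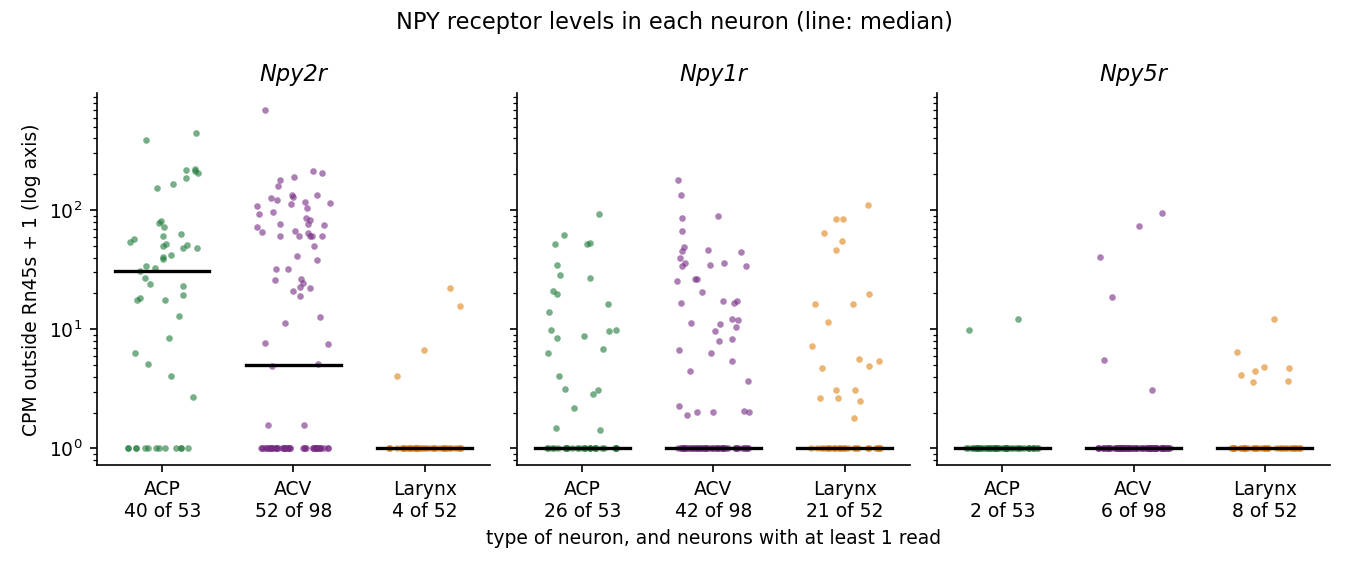
CPM outside Rn45s, plus 1 and on a log axis, of Npy2r, Npy1r and Npy5r in each neuron (points), by type, with the median as a line and neurons at 0 on the bottom row. Npy2r was spread over 40 of 53 ACP and 52 of 98 ACV neurons and 4 of 52 Larynx neurons, Npy1r over a like share of each type, and Npy5r over 2, 6 and 8 neurons.

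The mean level of Npy2r was 61.9 ± 94.4 CPM (SD) in ACP neurons, 44.5 ± 84.8 CPM in ACV neurons and 0.866 ± 3.65 CPM in AmbLaryngeal neurons. Summed over neurons these were 4001 reads (exact Poisson 95% interval 3878 to 4127), 5147 reads (5007 to 5290) and 27 reads (17.8 to 39.3). On the scale of log2(mean CPM + 1), AmbCardiac neurons were 4.79 above AmbLaryngeal neurons. Of 13202 genes with a read in 10% or more of the neurons of either target, 7.07% were past 2-fold higher in AmbCardiac neurons and 8.80% past 2-fold higher in AmbLaryngeal neurons, and only 4 of the 13202 had a higher ratio than Npy2r. Npy2r was also among the 0.197% of genes detected in a share of AmbCardiac neurons at least 40 percentage points higher, with a difference of 53.2 points. It passed the 10% filter only through the AmbCardiac neurons, where it was high. Its AmbLaryngeal mean was under the 1 CPM added, so its ratio depends on that addition.

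The AmbLaryngeal neurons were shallower, so the shares were also compared at equal depth. When each neuron was thinned to 200000 reads outside Rn45s, which left out 3 shallower AmbLaryngeal neurons, the expected detection was 71.2% of ACP, 49.7% of ACV and 6.76% of AmbLaryngeal neurons. Among neurons with 500000 to 1000000 reads outside Rn45s, Npy2r was detected in 11 of 17 ACP, 14 of 35 ACV and 2 of 27 AmbLaryngeal neurons. Astrocyte RNA differed somewhat between the targets. Of 6 astrocyte markers, Gfap and Aqp4 were past 2-fold higher in AmbCardiac neurons, while the summed level of the list had medians of 1049 CPM (range 3.9 to 30322) in AmbCardiac and 1130 CPM (0 to 14617) in AmbLaryngeal neurons. Of 5 genes of oligodendrocytes and their precursors, Pdgfra was past 2-fold higher in AmbCardiac neurons (log2 ratio 1.70), with median sums of 118.1 and 115.8 CPM for that list. The part of these genes, and of those of excitatory or inhibitory neurons, in the Npy2r difference was not tested. With neurons limited to 900 counts of the astrocyte gene Apoe, the log2 ratio of Npy2r was 4.48.

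The 4 AmbLaryngeal neurons with Npy2r had 16, 7, 2 and 2 reads of it, at 21.4, 14.8, 3.09 and 5.76 CPM. None of the 4 had a read of Tbx3, a T-box transcription factor gene of AmbCardiac neurons. All 4 had reads of the laryngeal marker Calca, from 37 to 3748. Among all AmbLaryngeal neurons 21.2% had a read of Tbx3 and 96.2% a read of Calca. Another cardiac marker, Cnr1, was detected in 2 of the 4, with 24 and 3 reads. The laryngeal marker Pnoc had 0 reads in the neuron with 16 reads of Npy2r. The Npy2r levels of the 4 lay below the median of the ACP neurons, and 3 of the 4 lay above the median of the ACV neurons.

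**Figure D2:**
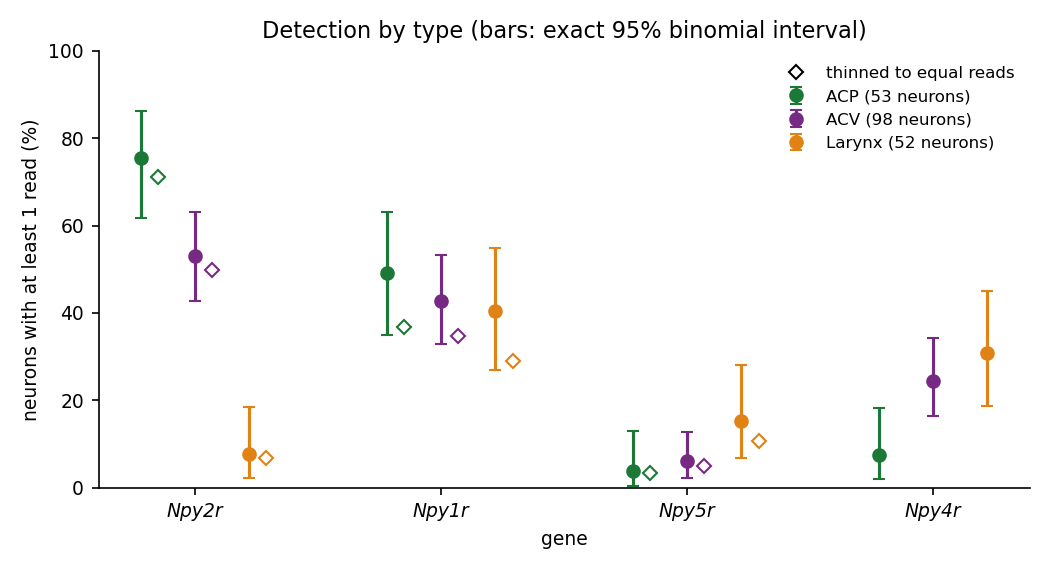
Share of neurons with at least 1 read of each receptor gene (filled points, with exact 95% binomial intervals) in 53 ACP, 98 ACV and 52 Larynx neurons, and the share expected for the 3 members after thinning to 200000 reads outside Rn45s (open diamonds). Npy2r stood at 75.5%, 53.1% and 7.69%, while the intervals of Npy1r overlapped in all 3 types.

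Within the AmbCardiac neurons, Npy2r was found in a larger share of ACP than of ACV neurons. The difference was 22.4 percentage points, and the lower end of the ACP interval, 61.7%, was just under the upper end of the ACV interval, 63.2%. A larger difference toward ACP was seen for 263 of 13356 genes, and 0.247% of them differed by at least 40 points. The mean level was 1.38-fold higher in ACP neurons, 0.47 on the log2 scale, within the 2-fold range that 7.55% of genes passed toward ACP and 6.31% toward ACV.

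The detecting neurons differed the other way in median level. Where Npy2r was detected its median was 47.3 CPM in ACP neurons (quartiles 21.1 and 77.8) and 63.9 CPM in ACV neurons (24.6 and 113.02), and these ranges overlapped widely. The reads were unevenly spread, with the 5 neurons of most Npy2r reads holding 46% of the reads of ACP neurons and 30.4% of those of ACV neurons. Requiring 5 reads kept 37 of the 40 ACP and 47 of the 52 ACV neurons. Of the 4 AmbLaryngeal neurons it kept 2.

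Npy2r was detected more often in neurons of greater depth. ACP neurons with Npy2r had a median of 8241 genes detected against 5612 in those without it, and ACV neurons 8348 against 6503. In ACP neurons detection was 11 of 17 at 500000 to 1000000 reads outside Rn45s, 18 of 20 at 1000000 to 1500000 and 11 of 14 above that. In ACV neurons it was 14 of 35, 20 of 32 and 16 of 24. Detection was higher in ACP neurons in each of these ranges, with intervals that overlapped. Among neurons with at least 7000 genes detected, it was 34 of 38 ACP and 44 of 62 ACV neurons. Microglial genes moved with the type as well. All 4 of C1qa, C1qb, C1qc and Cx3cr1 were past 2-fold higher in ACV neurons, and their summed level had a median of 3.62 CPM (0 to 648) in ACP and 15.5 CPM (0 to 5093) in ACV neurons. Among the other marker lists, the astrocyte gene Gfap (log2 ratio -1.24) and Slc17a6 (-1.26) were past 2-fold higher in ACV neurons, and the endothelial gene Cldn5 (1.10) and Slc6a5 (1.49), of inhibitory neurons, in ACP neurons. The part of these genes in the Npy2r difference was not tested. Within both types the median of the microglial sum was higher in neurons with Npy2r, 12.7 against 0 CPM in ACP and 19.3 against 2.81 CPM in ACV neurons.

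**Figure D3:**
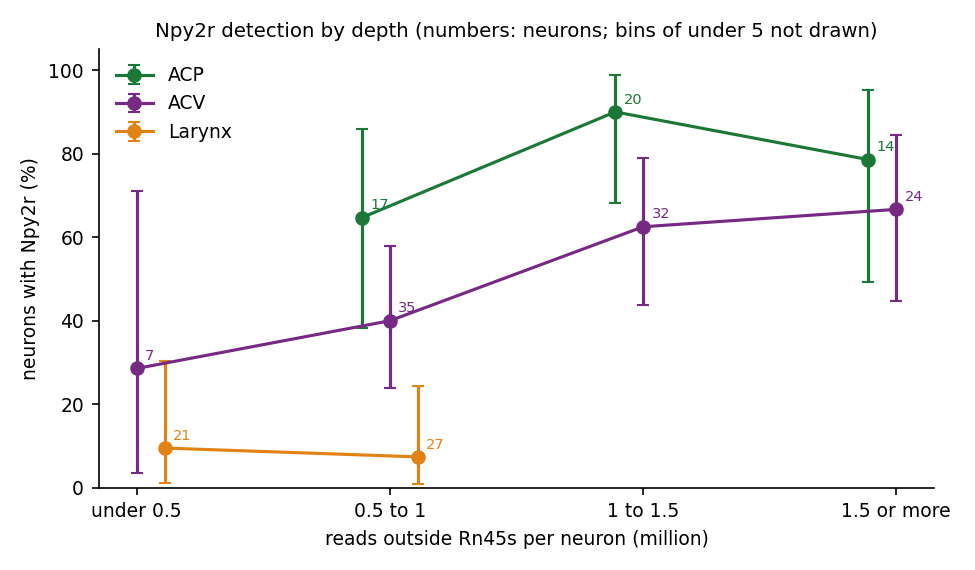
Share of neurons with Npy2r (points, with exact 95% binomial intervals) against reads outside Rn45s per neuron in 4 ranges, by type, with the number of neurons beside each point and ranges of under 5 neurons left out. ACP neurons lay above ACV neurons in each range drawn for both, and Larynx neurons stayed below 10%.

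Npy2r crossed the marker genes of the types in different ways. In ACV neurons it was detected in 49 of 78 neurons with Tbx3 (62.8%, 51.1 to 73.5) and 3 of 20 without it (15%, 3.21 to 37.9). In ACP neurons it was detected in 32 of 42 with Tbx3 (76.2%) and 8 of 11 without it (72.7%). With and without Ghsr, the ghrelin receptor gene, it was detected in 41 of 65 (63.1%, 50.2 to 74.7) and 11 of 33 ACV neurons (33.3%, 18 to 51.8). The neurons without these genes were shallower, with medians of 5726 genes detected against 8219 for Tbx3 and 6539 against 8407 for Ghsr. Among ACV neurons with at least 7000 genes, Npy2r was in 38 of 49 with and 6 of 13 without Ghsr, and in 43 of 58 with and 1 of 4 without Tbx3.

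In ACP neurons a split by Tacr3, the neurokinin 3 receptor gene, was narrower among neurons of greater depth. Npy2r was detected in 30 of 34 ACP neurons with Tacr3 (88.2%) and 10 of 19 without it (52.6%), but in 28 of 31 and 6 of 7 of those with at least 7000 genes. With and without Calb1, which encodes calbindin, it was detected in 31 of 41 and 9 of 12 ACP neurons, and in 24 of 44 and 28 of 54 ACV neurons. Among ACV neurons with at least 7000 genes it was detected in 22 of 35 with and 22 of 27 without Calb1, with intervals that overlapped. With and without Trhr, the thyrotropin-releasing hormone receptor gene, it was detected in 30 of 40 and 10 of 13 ACP neurons. The cannabinoid receptor gene Cnr1 was detected in 52 of 53 ACP neurons and 90 of 98 ACV neurons, so few neurons lacked it. In the 8 ACV neurons without Cnr1, 2 had Npy2r.

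Npy1r was detected in a like share of every type. Its level ran from 0 to 91.6 CPM in ACP, 0 to 178.5 CPM in ACV and 0 to 110 CPM in AmbLaryngeal neurons, with a median of 0 in each. Detection was 26 of 53 ACP (49.1%, 35.1 to 63.2), 42 of 98 ACV (42.9%, 32.9 to 53.3) and 21 of 52 AmbLaryngeal neurons (40.4%, 27 to 54.9), and the means were 9.89 ± 19.1, 12.2 ± 27.5 and 10.2 ± 24.5 CPM (SD). The intervals of the shares overlapped, and each mean lay within the spread among neurons of the other types. As neurons are not replicates, this is no test of whether the types differ. No ratio passed 2-fold, with log2 ratios of 0.14 for AmbCardiac over AmbLaryngeal and -0.28 for ACP over ACV neurons. In AmbLaryngeal neurons 8 of the 21 had at least 5 reads, against 53 of the 68 AmbCardiac neurons with Npy1r, whose depth was greater. ACP neurons with Npy1r had more Apoe, with a median of 1399 counts against 806 in those without it. With at most 900 counts of Apoe, detection was 34.6% of ACP and 40.9% of ACV neurons, which turned the order of these types.

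Npy5r was rare in every type. It was detected in 2 of 53 ACP (3.77%, 0.460 to 13), 6 of 98 ACV (6.12%, 2.28 to 12.8) and 8 of 52 AmbLaryngeal neurons (15.4%, 6.88 to 28.1), and these intervals overlapped. The 2 ACP neurons had 11 and 14 reads, the 6 ACV neurons 3 to 150 reads, and the 8 AmbLaryngeal neurons 1 to 6 reads each. Thus the AmbLaryngeal neurons had the larger share with Npy5r and only 20 reads in all, while ACV neurons had 353 reads, of which 99.2% came from 5 neurons. At 5 reads or more, 2 ACP, 5 ACV and 1 AmbLaryngeal neuron remained. Its mean was 1.65 ± 10.2 CPM (SD) in AmbCardiac and 0.695 ± 1.95 CPM in AmbLaryngeal neurons, a log2 ratio of 0.65 that ran from 0.12 to 1.30 over the alternatives. Npy5r was under 10% in both ACP and ACV neurons and was not counted in that comparison. Between the targets it was counted only through the AmbLaryngeal neurons. Npy2r and Npy1r were counted in both comparisons, Npy2r between the targets only through the AmbCardiac neurons.

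Compared per length of exon, Npy2r was the highest of the receptors in AmbCardiac neurons. Its mean was 18.3 ± 27.9 CPM per kb (SD) in ACP and 13.1 ± 25.1 in ACV neurons, against 2.86 ± 5.52 and 3.54 ± 7.96 for Npy1r and 0.148 ± 0.761 and 0.917 ± 4.92 for Npy5r. In AmbLaryngeal neurons the order was otherwise, with Npy1r at 2.96 ± 7.09, Npy5r at 0.272 ± 0.763 and Npy2r at 0.256 ± 1.08 CPM per kb, the last 2 of which lay within each other's spread.

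Npy2r and Npy1r met in the same neuron about as often as their shares alone would give. In ACP neurons 22 held both Npy2r and Npy1r, 18 held Npy2r without Npy1r, 4 held Npy1r without Npy2r and 9 held neither, and the product of the shares was 19.6 neurons with both. In ACV neurons these numbers were 23, 29, 19 and 27, with a product of 22.3. Npy1r was in 55% of ACP neurons with Npy2r and 30.8% of those without, and in 44.2% and 41.3% of such ACV neurons. Across the AmbCardiac neurons Npy1r was in 48.9% of neurons with Npy2r and 39% of those without, and neurons with either gene had more genes detected. All 3 receptors were found together in 1 ACP and 3 ACV neurons. No member was detected in 9 ACP, 25 ACV and 24 AmbLaryngeal neurons.

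The other genes of the pathway were taken from lists of 50 genes, of which 48 were in the table, while Grk2 and Grk3 were found under neither their current nor their older symbols. The remaining receptor of the family that was detected, Npy4r, which encodes the pancreatic polypeptide receptor Y4, was in 4 of 53 ACP (7.55%), 24 of 98 ACV (24.5%) and 16 of 52 AmbLaryngeal neurons (30.8%). Its mean was 1.58 ± 7.46 CPM in ACP and 10.9 ± 30.7 CPM in ACV neurons, a log2 ratio of -2.21, opposite in direction to Npy2r. Npy4r stayed past 2-fold under each alternative but a pseudocount of 10 CPM (-0.86). Npy6r, the gene of the y6 receptor, had no read in any neuron. In ACV neurons Npy4r was in 18 of the 52 with Npy2r and in 6 of the 46 without it. The product of the shares was 12.7 ACV neurons with both.

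The ligand gene Npy was detected in 24 of 53 ACP, 51 of 98 ACV and 29 of 52 AmbLaryngeal neurons. Its mean was 14.2 ± 22.4 CPM in ACP, 34.1 ± 81.9 CPM in ACV and 33 ± 57.2 CPM in AmbLaryngeal neurons. The log2 ratio of ACP over ACV neurons was -1.21, but -0.07 in neurons with at most 900 counts of Apoe, so the 2-fold difference was not seen among neurons with little Apoe. Npy was in 46 of the 92 AmbCardiac neurons with Npy2r and in 29 of the 59 without it. The genes of the other ligands, Pyy and Ppy, had reads in 1 AmbCardiac neuron each. Ppy was also detected among AmbLaryngeal neurons, with a difference in share, AmbCardiac minus AmbLaryngeal, of -1.26 percentage points.

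Of the 41 pathway genes detected in at least 10% of AmbCardiac or AmbLaryngeal neurons, 3 were past 2-fold higher in AmbCardiac neurons and 4 in AmbLaryngeal neurons, near the 7.07% and 8.80% of all genes, with a median log2 ratio of -0.07 that was near the -0.01 of all genes. None came near the ratio of Npy2r. The next was Rgs4, an accelerator of the GTPase of inhibitory G proteins, at 316 CPM in AmbCardiac and 73.4 CPM in AmbLaryngeal neurons (log2 ratio 2.09), past 2-fold under every alternative. The neuropeptide FF receptor gene Npffr1 (1.65) and the potassium channel gene Kcnj6 (1.10) were higher in AmbCardiac neurons, and Npffr2 (-1.53), Adcy3 (-1.14), Adcy9 (-1.02) and Grk5 (-1.18) in AmbLaryngeal neurons. Each of these 6 fell within 2-fold under 2 or more alternatives, and Npffr1 was at 0.15 with at most 900 counts of Apoe.

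The genes that couple the Y receptors to the cell were broadly present. All 5 inhibitory G protein genes were within 2-fold between the targets and between the types, with Gnao1 detected in every neuron at 286 CPM in AmbCardiac and 354 CPM in AmbLaryngeal neurons. The same held for all 8 genes of beta and gamma subunits. Cacna1b, which encodes the pore of the presynaptic N-type calcium channel, was detected in 94.7% of AmbCardiac and 88.5% of AmbLaryngeal neurons at 219 and 207 CPM.

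Between ACP and ACV neurons, 3 of 40 pathway genes were past 2-fold higher in ACP and 6 in ACV neurons, against 7.55% and 6.31% of all genes, with a median log2 ratio of 0.06 against 0.00 over all genes. The genes higher in ACP neurons were Rgs8 (log2 ratio 2.59), Kcnj3, a subunit of potassium channels opened by inhibitory receptors (1.79), and Grk5, a receptor kinase (1.37). Kcnj3 had reads in 58.5% of ACP neurons against 35.7% of ACV neurons, at 21.1 and 5.38 CPM. Higher in ACV neurons were Npffr1 (-2.93), the adenylyl cyclase gene Adcy8 (-2.53), Npy4r, Rgs10 (-1.54), the calcium channel gene Cacna1e (-1.42) and Npy. Rgs8, Kcnj3, Npffr1, Adcy8, Rgs10 and Cacna1e stayed past 2-fold under each of the 9 alternatives, and Grk5 did not under 3 of them.

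**Figure D4:**
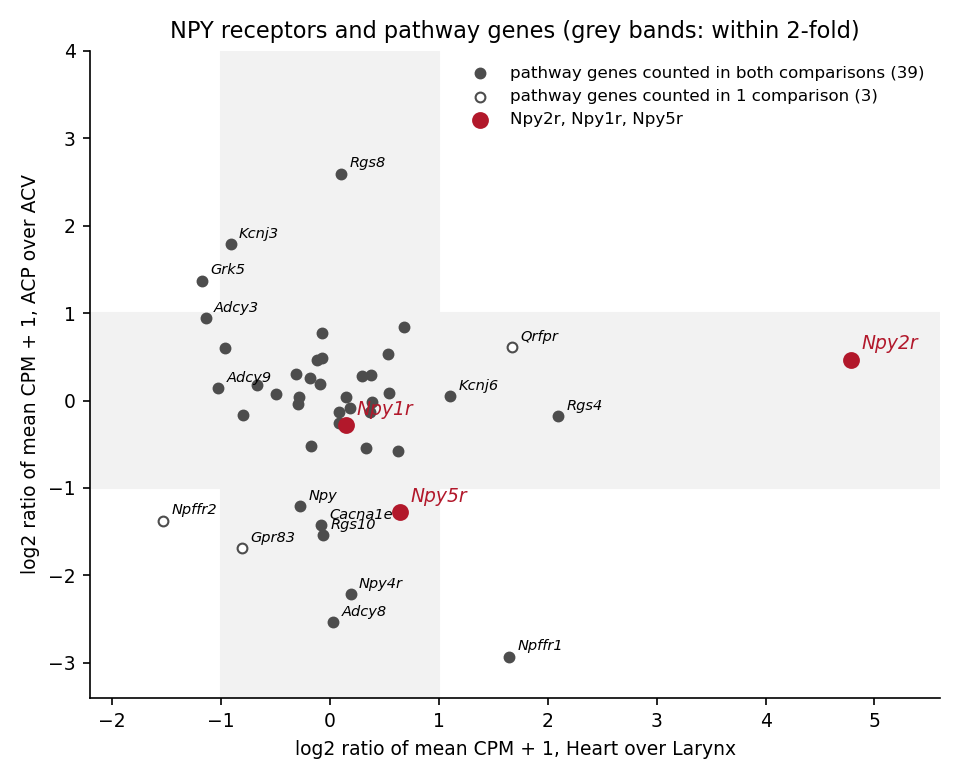
Log2 ratio of mean CPM + 1, Heart over Larynx (horizontal) and ACP over ACV (vertical), for Npy2r, Npy1r and Npy5r (red) and the other pathway genes (grey, open where a gene was under 10% of both groups in either comparison), with bands for ratios within 2-fold. Npy2r lay at 4.79 and 0.47, apart from the other genes on the horizontal axis, and Npy5r, at 0.65 and -1.28, was under 10% of both ACP and ACV neurons.

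Genes that followed Npy2r among the AmbCardiac neurons were sought by Spearman's rank correlation of CPM over the ACP and ACV neurons together, for 12777 genes detected in at least 10% of them. These are descriptions, with no test, over neurons that differ in type and depth. The correlation ran from -0.31 to 0.43 with a median of 0.06, and 5% of genes were above 0.20, so that even the highest values were weak in these sparse counts. Npy2r itself had a correlation of 0.25 with the number of genes detected and 0.23 with the reads outside Rn45s, and 74.3% of all genes were above 0.

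The highest was Ikbkg, which encodes the regulatory subunit of the IkB kinase complex, with a correlation of 0.43 (0.44 in ACP and 0.41 in ACV neurons). It was detected in 80.4% of neurons with Npy2r and 25.4% of those without it, at medians of 25.5 and 0 CPM. Ikbkg stayed the highest gene under 4 of 5 alternatives, at 0.35 given type and depth, while under a limit of 900 counts of Apoe it was at 0.38 and Rab36 was the highest, at 0.48. Exons of Ikbkg share up to 278 bases with G6pdx on the opposite strand, and the reads carry no strand. G6pdx had a correlation of -0.04 with Npy2r.

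After Ikbkg came Ing1 (0.38), the cadherin gene Cdh12 (0.37), Entpd5 (0.35), Pcyox1l (0.35), the presynaptic gene Rims3 (0.34), Wdr24 (0.34), the mitochondrial ribosome gene Ptcd3 (0.34), the extracellular matrix gene Tnr (0.34) and the carnitine acetyltransferase gene Crat (0.33). Each was above 0 in both ACP and ACV neurons, but these genes were picked over the same neurons. Of all genes, 63.9% were above 0 in ACP and 72.9% in ACV neurons. The 10 highest within ACP and within ACV neurons had 0 genes in common, and the 100 highest had 1. Unrelated lists of these lengths from 12777 genes would also share few or none. By the mean of the values within the 2 types the 5 highest were Ikbkg (0.43), Ptcd3 (0.36), Atp6v1a, a subunit of the vacuolar proton pump (0.36), Wdr24 (0.36) and Sc5d, an enzyme of cholesterol synthesis (0.35). Exons of Crat overlap those of Dolpp1 on the opposite strand.

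The lowest values were those of Eef1a1 (-0.31), which encodes a translation elongation factor, Cdr1 (-0.27) and the ribosomal protein genes Rps9 and Rpl13 (each -0.27). With Rn45s in the totals, Eef1a1 was at -0.16, Cdr1 at -0.27, Rps9 at -0.20 and Rpl13 at -0.18. These 4 genes were detected in over 90% of neurons with and without Npy2r. Of 81 genes of cytosolic ribosomal proteins, a list drawn after these values were seen, 75 were below 0, with a median of -0.13. Many of these genes have processed copies in the genome that can share reads, and Cdr1 is overlapped by a transcript on the opposite strand.

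The other receptor genes were not among the highest. Npy1r had a correlation of 0.05 with it (0.14 in ACP and -0.01 in ACV neurons), with 6868 of the 12777 genes above it, and Npy4r had a correlation of 0.05 (-0.01 in ACP and 0.13 in ACV neurons). Npy4r was in 22 of the 92 AmbCardiac neurons with Npy2r and 6 of the 59 without it, where neurons with Npy2r also had more genes detected.

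**Figure D5:**
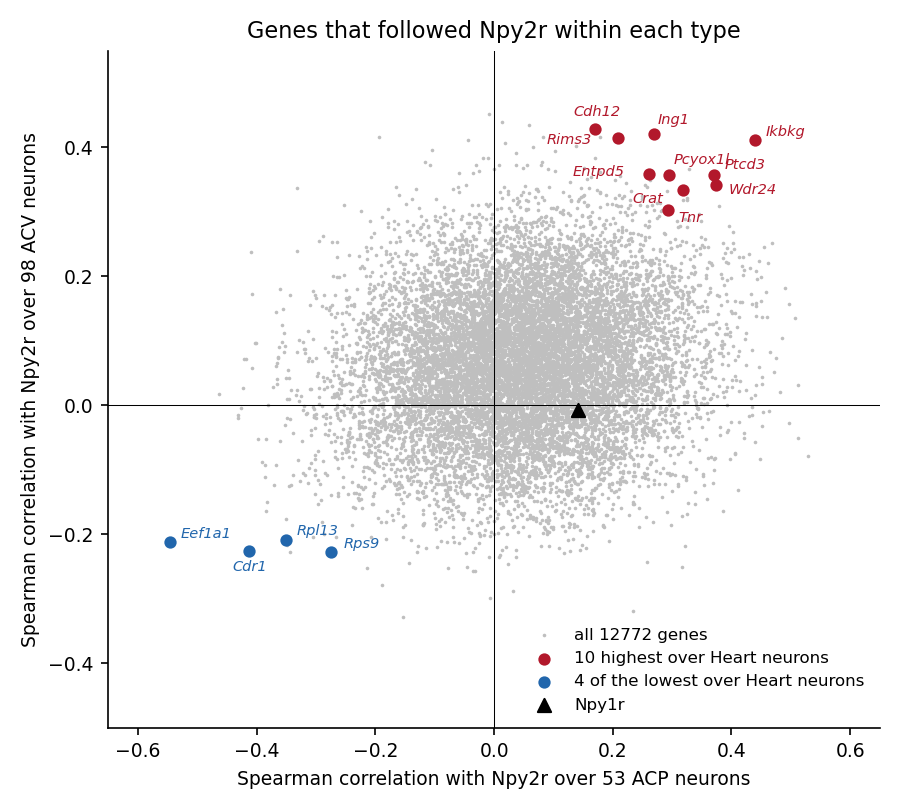
Spearman's rank correlation with Npy2r within 53 ACP neurons (horizontal) and within 98 ACV neurons (vertical) for each gene (grey), with the 10 highest (red) and 4 of the lowest (blue) over all Heart neurons and Npy1r (triangle). Ikbkg lay highest on both axes together, at 0.44 and 0.41, and Npy1r lay near the middle, at 0.14 and -0.01.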

How the data were processed

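Retrogradely labeled single neurons were sequenced by Smart-seq2, with 75 base paired-end reads. The authors aligned the reads to mm10 with STAR 2.6.1d (version from the submitters' processing notes) and deposited raw read counts per gene symbol, without normalization. The counting program is not given in the sources used here. The deposited table named CPM was not used. Targets and types are from the deposited annotation. The members and lists were chosen with earlier results of these data known.

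Counts were divided by each neuron's total without Rn45s and scaled to 1000000 (CPM). A gene is detected at 1 read, and a count of 0 allows up to 3 neurons. Genes in at least 10% of either group were compared by log2 of mean CPM + 1, past 2-fold as the call. No test was run, and the study's rank sum test, which treats neurons as replicates, was not used. No 2 columns were identical. The named genes are the members, the pathway and marker lists, and by rank correlation with Npy2r the 10 highest, the 5 lowest, of which 1 is not reported here, and the 5 highest within types. Rab36, G6pdx and Dolpp1 and the ribosomal list were chosen after their values were seen.

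The alternatives were 2 or 5 reads for detection, thinning to 200000 reads, limits of 900 counts of Apoe, 1000000 counts in all or 7000 genes (the last chosen after seeing the data), totals with Rn45s, edgeR 4.0.16 TMM library sizes, DESeq2 1.42.0 size factors, pooled sums, pseudocounts of 0.1 and 10 CPM, no detection filter or 25%, the highest neuron of each type left out, and within-type, Pearson and partial rank correlations. Ratios and correlations were tested on simulated counts in Python 3.11.15 with numpy 2.4.6, pandas 2.3.3 and scipy 1.17.1, with matplotlib 3.10.9 and R 4.3.3.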

Additional observations from a re-analysis of the deposited data

How the results depend on the processing

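Of the alternative values of the shares, the Npy2r ratios, the gene counts and the list of followers, 85 stayed within the margin used (the 95% interval for shares) and 30 moved past it. With at least 7000 genes detected, Npy2r was found in 89.5% of ACP, 71% of ACV and 78% of AmbCardiac neurons, and Npy1r in 56% of AmbCardiac neurons. Npy1r was in 34.6% of ACP neurons with at most 900 counts of Apoe, in 35.1% of AmbCardiac and 15.4% of AmbLaryngeal neurons at 5 reads, and in 35.4% of AmbCardiac neurons after thinning. Npy5r was in 1.92% of AmbLaryngeal neurons at 5 reads. The log2 ratio of Npy2r, AmbCardiac over AmbLaryngeal, was 3.95 with DESeq2 size factors and 5.71 and 2.48 with pseudocounts of 0.1 and 10 CPM. The ratio of ACP over ACV was 0.55 with TMM, 0.40 with a pseudocount of 10 CPM and 0.56 with at most 900 counts of Apoe. Grk5 turned from higher in AmbLaryngeal neurons to 0.056 with at most 900 counts of Apoe. Genes past 2-fold higher in AmbCardiac neurons numbered 933, and 583 with a filter of 25%, 2317 with totals that included Rn45s and 215 with a pseudocount of 10 CPM. Those higher in AmbLaryngeal neurons numbered 1162, and 368 with Rn45s and 385 with 10 CPM. Those higher in ACP neurons numbered 1009, and 670 at 25% and 287 with 10 CPM, and in ACV neurons 843, and 445 at 25%, 550 with Rn45s and 170 with 10 CPM. Including Rn45s moved the median of all genes to 0.49 (log2, AmbCardiac over AmbLaryngeal) and the share of calls that were higher in AmbCardiac neurons from 44.5% to 86.3%. Of the 10 genes that most followed Npy2r, 4 stayed among the 10 highest by the mean within types, 3 by Pearson correlation, 4 by partial rank correlation, 6 with Rn45s in the totals and 1 with at most 900 counts of Apoe. The causes of these changes were not tested. No paired analysis was possible because the labels number no replicates and tie no neuron to a mouse. At this depth the 0 reads of Npy6r allow up to 1.99% of AmbCardiac neurons with a read.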
